A study of Homo sapiens with 4 samples.

Results

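The genes described here are 9 named members of the NRF2 antioxidant response: HMOX1, NQO1, GCLM, GCLC, TXNRD1, SRXN1, OSGIN1, FTL and FTH1. They were chosen by name with earlier results of these arrays in view, in which HMOX1 stood out, so every difference given for them is a description and carries no test. All one-gene probe sets of these genes in the deposited table were taken: 8 of the 9 genes had one, with 16 probe sets among 41091 that name 1 gene. FTH1, the ferritin heavy chain gene, had 0 such probe sets and is not analysed here. Of the 16, 15 reached the median of all signals (17.2) on at least 1 array. The exception was the second probe set of TXNRD1, which read 1.1 to 4.3.

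The arrays measured total RNA of U87TR-Da cells, derived from U87MG, a human glioblastoma line, and built so that doxycycline switches on DACH1, a nuclear repressor of transcription. There were 4 arrays, 1 for each condition: DACH1-induced and DACH1-silenced cells in Neurobasal medium without serum but with EGF, bFGF and the supplements N-2 and B-27, and DACH1-induced and DACH1-silenced cells in DMEM with 10% FBS. The protocol text of all 4 samples, silenced ones included, gives 1 µg/mL doxycycline for 72 h, so how the silenced cells were kept is not given in the sources used here. No condition was replicated, nothing says whether the line is 1 clone, and precision throughout is limited by having 4 arrays.

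NRF2, encoded by NFE2L2, is a transcription factor that KEAP1 holds at a low level by directing its degradation. Oxidants and electrophiles that modify KEAP1 let NRF2 accumulate, pair with a small MAF protein and bind antioxidant response elements near genes of glutathione synthesis, thioredoxin reduction, quinone detoxification and iron storage. BACH1 binds the same elements as a repressor until heme displaces it, and the heme oxygenase gene HMOX1 is a well known target of both. Heme oxygenase 1 splits heme into biliverdin, carbon monoxide and iron, and ferritin stores the iron that is set free.

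Promoter stretches are shown because the antioxidant response element is what the 9 genes are known to share. RefSeq promoter windows (build GRCh38.p14) were found for 7 of the genes, 8 windows in all, and the 250 bases before the gene start were searched on both strands for TGACNNNGC, the core letters of the element. The letters occurred in 3 of the 8 windows, 1 of GCLM and 2 of TXNRD1, and in 10.91% of 35116 windows of the same length. The stretches follow on the strand of the gene, 5′ to 3′, with the letters or their reverse complement in capitals.
GCLM, chr1:93909446-93909474, minus strand, match beginning 34 bases before the start: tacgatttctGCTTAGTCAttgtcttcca
TXNRD1, chr12:104215670-104215698, plus strand, match beginning 99 bases before the first start: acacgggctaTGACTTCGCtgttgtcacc
TXNRD1, chr12:104286920-104286948, plus strand, match beginning 102 bases before the second start: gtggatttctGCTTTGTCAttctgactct
OSGIN1, which had no match to those letters, held the AP-1 letters TGANTCA, present in 6.57% of all windows and overlapping the first letters of the element. Read on the opposite strand, this stretch differs from TGACNNNGC only by G in place of C. Whether it is an antioxidant response element was not tested.
OSGIN1, chr16:83953133-83953159, plus strand, match beginning 97 bases before the start: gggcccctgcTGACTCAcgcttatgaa
A match is a run of letters and not a measured site. The windows of NQO1, GCLC, SRXN1 and FTL held neither motif, which says only that these letters are not within 250 bases of the start.

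The labels were checked first. The brightest DACH1 probe set read 875 in induced and 32.5 in silenced cells labelled serum-free, and 4431 in induced and 126 in silenced cells labelled serum. The other DACH1 probe sets were dim, at 0.4 to 8.3 and 2.9 to 24.7, and did not show this difference. Of the markers of a glioblastoma line, VIM, CD44 and TNC were bright on every array (3165 to 9278) and NES was near the median signal (19.6 to 35.8), whereas GFAP, AQP4 and S100B, of astrocytes, lay under the floor of 10.9 on all 4. Macrophages are rich in HMOX1 and ferritin. Of their 6 markers, 4 lay under that floor on every array, PTPRC reached 11.1 on 1 array, and CSF1R read 47.9 and 72.2 labelled serum-free against 21.9 and 19.3 labelled serum. The sum of the 6 was 61.1 in induced and 95 in silenced cells labelled serum-free, and 46.6 in induced and 37.2 in silenced cells labelled serum.

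Known medium-responsive genes did not all go with the medium labels. Of 16 such genes, limma, in the fit over all genes described with the wider set, called 6 higher and 7 lower labelled serum-free at an adjusted p of 0.05. Higher were the actin cytoskeleton genes CNN1, TAGLN, ACTA2, VCL, MYL9 and TPM1, which serum is known to induce: ACTA2 read 1807 (induced) and 3113 (silenced) labelled serum-free, against 208 (induced) and 477 (silenced) labelled serum. Lower were EGR1, FOS and SRF, of the early response to serum, and DUSP6, SPRY2, ETV4 and ETV5, targets of growth factor signalling.

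EGR1 read 38 (induced) and 66.4 (silenced) labelled serum-free, against 1571 (induced) and 1284 (silenced) labelled serum. DUSP6, a phosphatase of ERK, read 38.1 (induced) and 45.3 (silenced), against 1012 (induced) and 2383 (silenced) labelled serum. Read as a response to serum, EGR1, FOS and SRF thus went with the labels. They moved in the same direction as the growth factor targets, so a serum and a growth factor response cannot be told apart in them. The dimmer SRF probe set read 17.3 (induced) and 22.3 (silenced) labelled serum-free, against 17.2 (induced) and 13.8 (silenced) labelled serum. The actin genes went against the labels, as did the growth factor targets, given the EGF and bFGF in the serum-free medium. The media are therefore called labelled serum-free and labelled serum, and every direction between media below rests on those labels.

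HMOX1 showed the widest range of the 8 measured genes, 15.6-fold between its highest and lowest array. On chromosome 22 (35381096 to 35394207, GRCh38.p14), it is covered by 1 probe set, which read 2841 in induced and 2357 in silenced cells labelled serum-free, and 1498 in induced and 182 in silenced cells labelled serum. A single array, silenced cells labelled serum, was low, and the other 3 lay within 1.90-fold of each other. Labelled serum, HMOX1 was 8.21-fold higher with DACH1 induced (log2 difference 3.04), place 4 from the top of 12190 genes compared. Labelled serum-free it was 1.21-fold higher (0.27), which placed it 1860 from the top of 12659 genes.

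Between media, HMOX1 was 12.9-fold higher labelled serum-free than labelled serum in silenced cells, place 24 of 12906 genes from the top. In induced cells it was 1.90-fold higher. The DACH1 difference labelled serum-free minus that labelled serum was -2.77 on the log2 scale, place 6 from the bottom of 12103 genes. Differences of differences of at least 1 below 0 were found for 4.76% of those genes and of at least 1 above 0 for 5.4%.

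NQO1, which encodes a quinone reductase that uses NADPH or NADH, followed the medium label and hardly the DACH1 state. Its brightest probe set read 1394 in induced and 1407 in silenced cells labelled serum-free, and 388 in induced and 338 in silenced cells labelled serum. The groups of 2 arrays did not overlap between media in any of its 3 probe sets. Over 12103 genes, both arrays labelled serum-free were above both labelled serum for 37.4% and below both for 35.4%, so such separation is common on these arrays. Labelled serum-free, NQO1 was 3.59-fold higher in induced and 4.16-fold higher in silenced cells. The other probe sets gave 3.41-fold and 4.10-fold in induced cells, and 5.13-fold and 4.32-fold in silenced cells. With DACH1 induced, NQO1 differed by 0.20 on the log2 scale labelled serum, with 0.55 and 0.09 for the other probe sets, and by -0.01 labelled serum-free. The 3 probe sets thus disagreed by up to 0.46 about the DACH1 difference labelled serum, a spread that covers the probes and not the cultures.

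**Figure D1:**
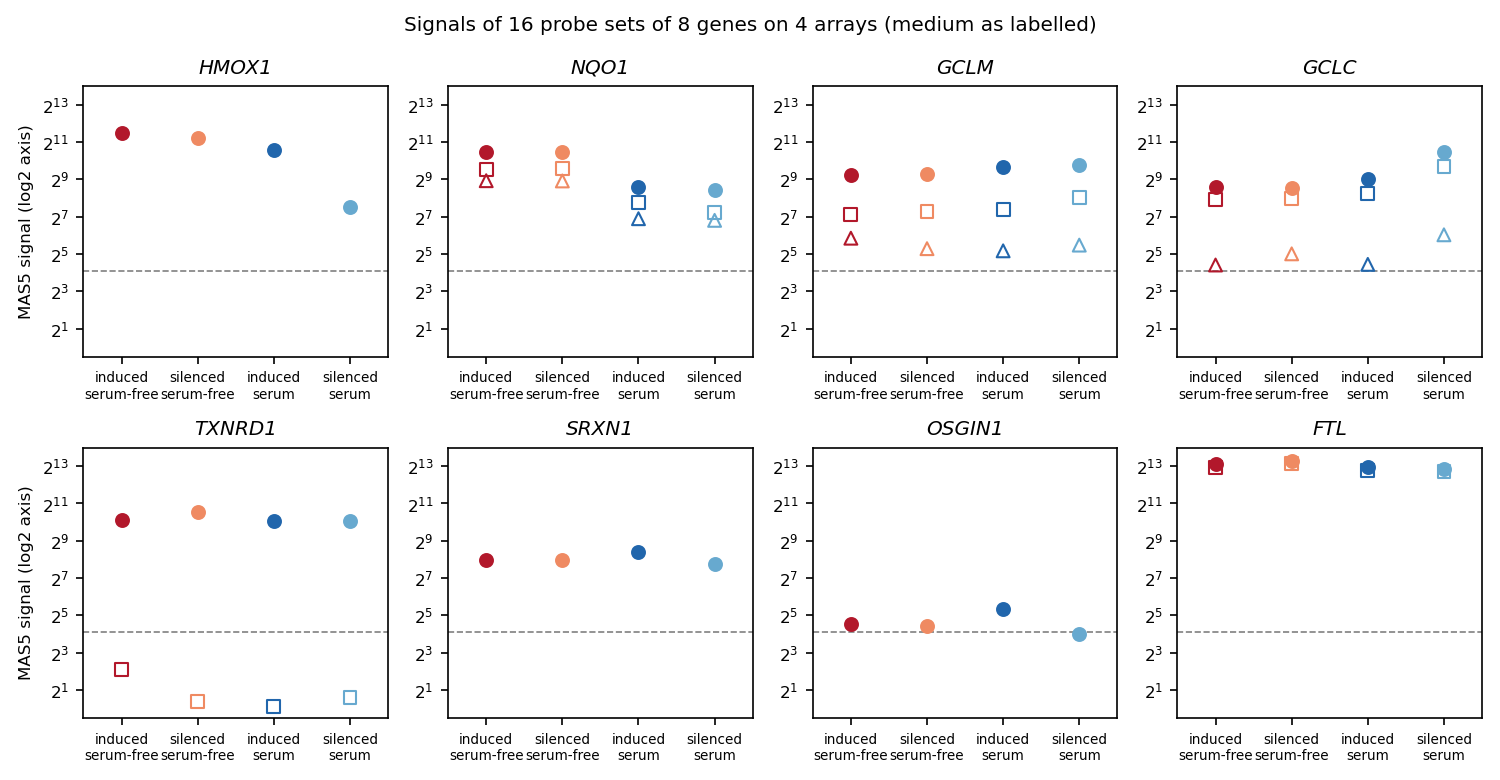
Signals of all 16 probe sets of the 8 genes with a probe set, as MAS5 signal on a log2 axis, for each of the 4 arrays (1 per condition, no error bars). Filled circles are the brightest probe set of a gene, open squares and triangles its other probe sets, and the dashed line is the median of all signals, 17.2; HMOX1 is low only in silenced cells labelled serum (182), and GCLC is high only there (1412).

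The 2 genes of glutathione synthesis differed in how far they varied. GCLC encodes the catalytic and GCLM the modifier subunit of glutamate-cysteine ligase, the rate-limiting enzyme of that synthesis. GCLC read 387 in induced and 375 in silenced cells labelled serum-free, and 522 in induced and 1412 in silenced cells labelled serum. Silenced cells labelled serum stood apart again, here as the highest array.

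Labelled serum, GCLC was 2.71-fold lower with DACH1 induced (log2 difference -1.44), and its other probe sets gave 2.75-fold and 3-fold lower. Labelled serum-free, the difference was 0.05, with -0.05 and -0.60 for the other probe sets, the last of which read 21.2 and 32.1. The difference of differences was 1.48, place 228 from the top of 12103 genes. Between media, GCLC was 3.77-fold lower labelled serum-free in silenced cells and 1.35-fold lower in induced cells.

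GCLM, whose promoter stretch is shown above, varied less than GCLC. The arrays of its brightest probe set lay within 1.45-fold and those of its second within 1.88-fold. The brightest read 604 in induced and 619 in silenced cells labelled serum-free, and 815 in induced and 874 in silenced cells labelled serum. It was thus 1.35-fold lower labelled serum-free in induced and 1.41-fold lower in silenced cells, short of 2-fold. With DACH1 induced it differed by -0.04 labelled serum-free and -0.10 labelled serum. The second probe set read 168 in induced and 258 in silenced cells labelled serum, 1.54-fold lower with DACH1 induced (-0.62). Like GCLC, it was highest in silenced cells labelled serum. Labelled serum, the third gave -0.31, so all GCLM probe sets had the sign of GCLC there. Signs were not kept throughout: the third, at 57.4 and 38.9 labelled serum-free and 35.9 and 44.4 labelled serum (induced before silenced in each medium), was 1.48-fold higher with DACH1 induced labelled serum-free.

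TXNRD1 encodes the cytosolic thioredoxin reductase, a selenoprotein. It read 1109 in induced and 1471 in silenced cells labelled serum-free, and 1052 in induced and 1056 in silenced cells labelled serum. The 4 arrays lay within 1.40-fold, the highest being silenced cells labelled serum-free. SRXN1, the gene of sulfiredoxin, which repairs over-oxidised peroxiredoxins, read 255 and 249 labelled serum-free (induced, silenced) and 337 and 213 labelled serum (induced, silenced). It was 1.58-fold higher with DACH1 induced labelled serum (log2 difference 0.66) and 1.02-fold higher labelled serum-free.

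OSGIN1, which encodes a growth inhibitor known to respond to oxidative stress, read close to the median of all signals. It read 23.1 in induced and 21.7 in silenced cells labelled serum-free, and 41 in induced and 15.8 in silenced cells labelled serum. It was 2.60-fold higher with DACH1 induced labelled serum and 1.07-fold higher labelled serum-free. MAS5 signals this low are noisy, and its silenced signal labelled serum lay under the median of all signals.

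FTL, the ferritin light chain gene, was bright on every array. Its brighter probe set read 8880 in induced and 9870 in silenced cells labelled serum-free, and 8038 in induced and 7413 in silenced cells labelled serum. Both arrays labelled serum-free were above both labelled serum, by 1.11-fold in induced and 1.33-fold in silenced cells, and the second probe set gave 1.12-fold and 1.35-fold. Among 9 housekeeping genes, 8 were likewise above on both arrays labelled serum-free, GAPDH by 1.12-fold in induced and 1.53-fold in silenced cells. Over 12103 genes the share was 37.4%, so nothing particular to FTL is read from this separation. Both FTL probe sets are of the _x_at kind, whose probes can also bind similar sequences, and FTL has many pseudogene copies. Ferritin is regulated by iron chiefly at translation, which an mRNA array does not measure.

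**Figure D2:**
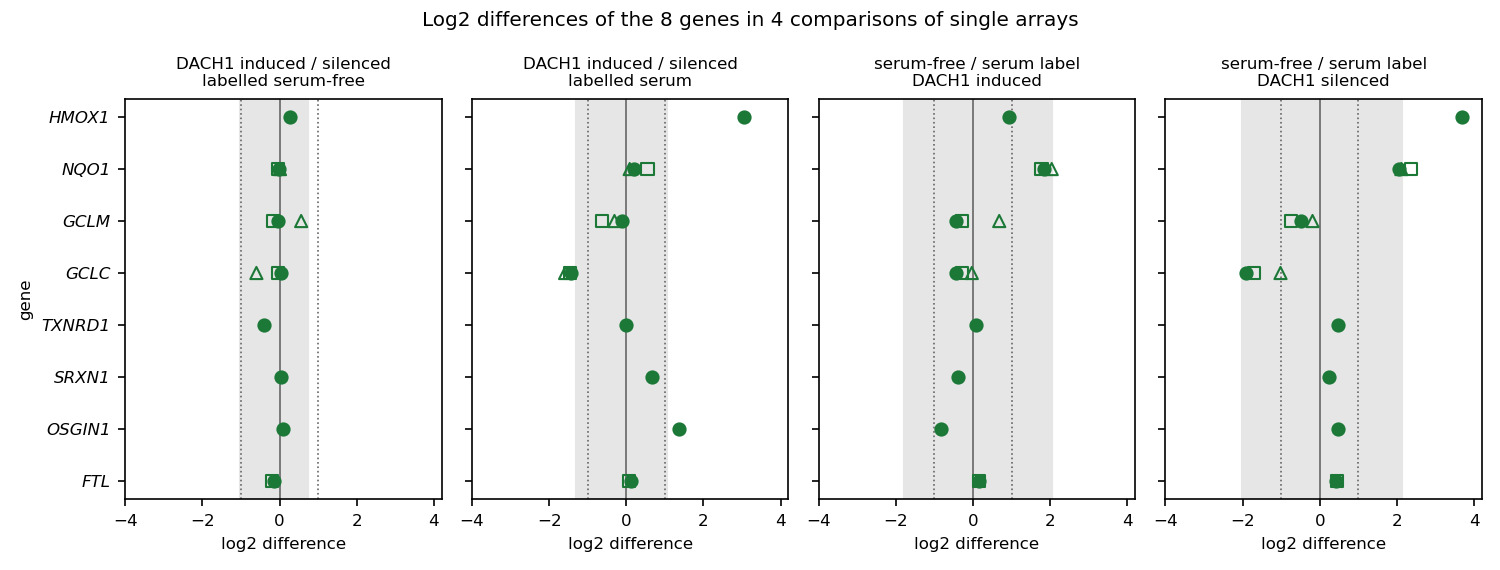
Log2 differences of the 8 genes (rows) in the 4 comparisons of single arrays, with filled circles for the brightest probe set and open symbols for the others. The grey band spans 95% of all genes compared and the dotted lines mark 2-fold; HMOX1 lies beyond the band in the DACH1 comparison labelled serum (3.04) and in the medium comparison of silenced cells (3.69).

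Counted over the 8 genes in the arrays labelled serum, HMOX1 and OSGIN1 were at least 2-fold higher with DACH1 induced and GCLC was at least 2-fold lower. Of all 12190 genes compared, 2.91% were higher and 4.77% lower by that measure. In the arrays labelled serum-free 0 of the 8 passed 2-fold, where 1.02% of all genes were higher and 2.72% lower. Between media, HMOX1 and NQO1 were at least 2-fold higher labelled serum-free in silenced cells and GCLC lower, beside 15.3% of all genes higher and 12.2% lower. In induced cells only NQO1 of the 8 passed, as higher, beside 14% of all genes higher and 10.1% lower. The members were picked from values of these comparisons, so nothing is read from these shares.

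The genes did not move as a block. Over the 8, the median DACH1 difference was 0.16 labelled serum and 0.01 labelled serum-free, where the median of all genes was 0.01 labelled serum and -0.002 labelled serum-free. The median medium difference was 0.44 in silenced cells and -0.16 in induced cells, where the medians of all genes were 0.06 and 0.01. Likeness of 2 genes was measured as the distance between their log2 signals over the 4 arrays, each centred on its own mean, among genes at or above the median signal on all 4, which leaves out OSGIN1. TXNRD1 and FTL were the most alike pair of the 7 genes, at 0.20, and HMOX1 and GCLC the least alike, at 4.71. Signals were not scaled to the range of a gene, and TXNRD1 (1.40-fold) and FTL (1.33-fold) varied little.

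Of 10323 genes, the 5 whose signals were most like those of HMOX1 were NDRG1 (distance 0.80), ACTN4 (0.99), HOMER2 (1.13), MCAM (1.21) and GABRQ (1.29). NDRG1 read 3313 in induced and 2754 in silenced cells labelled serum-free, and 1168 in induced and 312 in silenced cells labelled serum. For NQO1 and GCLC the same measure was added after their values were seen. Nearest to NQO1 were POC1A (0.04), BUB1B (0.06), TAF9B (0.07), KIF18B (0.08) and PLK4 (0.09), and nearest to GCLC were LRRN3 (0.14), PMAIP1 (0.18), C11orf96 (0.22), CASP4 (0.22) and IL13RA2 (0.23). NQO1 thus had closer neighbours on these 4 arrays than HMOX1 had. The distance depends on how widely a gene varied, 15.6-fold for HMOX1 and 4.16-fold for NQO1, so nothing is read from this.

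**Figure D3:**
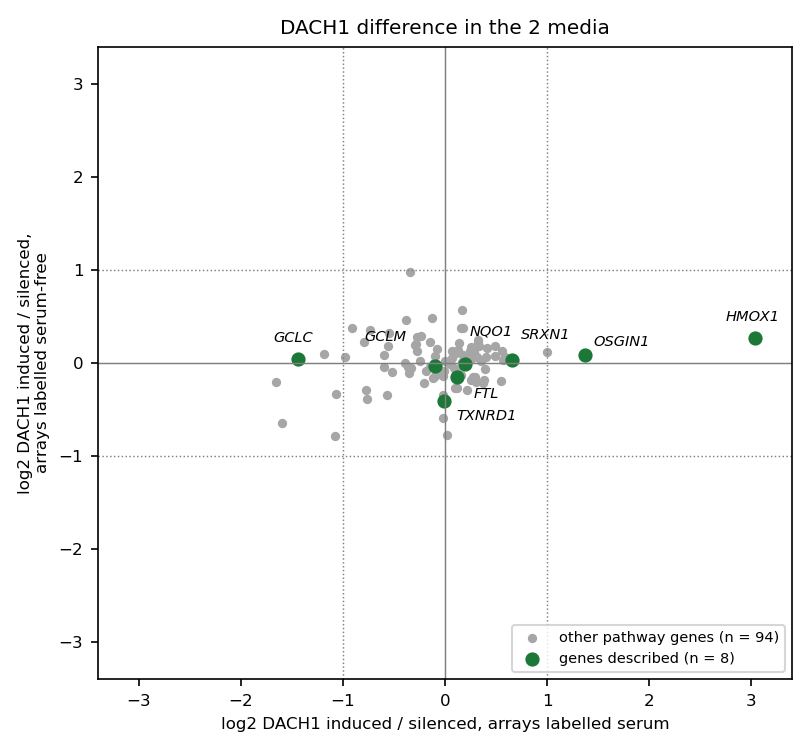
DACH1 differences (log2 induced over silenced) in arrays labelled serum (horizontal) and labelled serum-free (vertical) for the 8 genes in green and 94 other pathway genes in grey. The dotted lines mark 2-fold; the points spread along the horizontal axis and none of them passes 2-fold on the vertical one.

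A wider set of 107 genes in 9 lists (regulators, glutathione, thioredoxin, NADPH, detoxification, heme, iron, other antioxidants and metallothioneins) was set beside the 9, and 98 of them had a one-gene probe set. Labelled serum, 1 of the 93 compared was at least 2-fold higher with DACH1 induced and 5 were lower, with a median difference of 0.02. Of all genes, 2.91% were higher and 4.77% lower, so the list's shares were near or under those of all genes. Lower were SLC7A11, PIR, AKR1C2, AKR1C1 and ABCC2, and ABCC3 was higher, at 68.8 against 34.4. This lies exactly on the 2-fold threshold. Other ABCC3 probe sets gave log2 differences of 0.33, 0.16 and 0.39 labelled serum, or lay under the floor. SLC7A11, which encodes the cystine transporter that feeds glutathione synthesis, read 23.3 in induced and 70.4 in silenced cells. Its second probe set of similar brightness gave 29.4 and 91.2, and its remaining probe set read 16.3 in induced and 12.2 in silenced cells.

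PIR, the pirin gene, read 15.9 in induced and 50.2 in silenced cells labelled serum. The aldo-keto reductase genes AKR1C1 (107 induced, 225 silenced), AKR1C2 (59.3 induced, 135 silenced) and AKR1C3 (80.2 induced, 158 silenced) were all lower with DACH1 induced there, AKR1C3 just short of 2-fold. They are near-identical in sequence, and the probe sets of the first 2 are of the _x_at kind, so their signals may be shared. Labelled serum-free, 0 of 94 passed 2-fold with DACH1 induced (median 0.02), GSR, the glutathione reductase gene, being nearest at 80.9 against 40.9. The other GSR probe set read 53.1 against 44.

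Calls for the wider set come from 1 fit over 12103 genes, limma with DACH1 state and medium as terms, which has 1 residual degree of freedom per gene. Its spread is the DACH1-by-medium difference of single arrays, and repeated cultures play no part in its p-values. For DACH1 state, limma called 0 of 94 genes at an adjusted p of 0.05 (3 at an unadjusted p under 0.05), and 0% of all genes in either direction. For medium, 16 of the 94 rose labelled serum-free (17%) and 11 fell (11.7%). Of all genes 15.4% rose and 12.7% fell, shares close to those of the list. With no filter on low signals, limma called 0 of 98 genes for medium at that adjusted p (36 at an unadjusted p under 0.05), so each call for medium here depends on the filter.

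Detoxification genes had 4 of 14 up and 0 down, beside 15.4% of all genes up and 12.7% down. The same shares stand beside the count of each list below, and no list was tested as a set. EPHX1, the microsomal epoxide hydrolase gene, read 436 and 479 labelled serum-free (induced, silenced) and 101 and 108 labelled serum (induced, silenced), a rise of 4.38-fold (log2 2.13, SE 0.18, limma adjusted p 0.017). CBR3, a carbonyl reductase gene, rose 4.98-fold (limma adjusted p 0.017). PIR rose 7.98-fold (0.0225) and TRIM16 3.22-fold (0.0189), with limma adjusted p in parentheses. NQO1, at 3.87-fold over both DACH1 states and with no test, lay among the values of these 4 called genes. The remaining genes of the 14 were not called.

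Genes of heme handling had 4 of 13 up and 1 down. ABCB6, whose product carries porphyrins, read 276 in induced and 238 in silenced cells labelled serum-free, and 37.7 in induced and 34.2 in silenced cells labelled serum. It rose 7.14-fold (log2 2.84, SE 0.18, limma adjusted p 0.0167). The heme synthesis genes ALAD and CPOX rose 4.0-fold and 2.12-fold, and HMOX2, the constitutive heme oxygenase gene, rose 2.21-fold. ALAS1, which encodes the rate-limiting enzyme of heme synthesis outside the erythroid lineage and is repressed by heme, fell 2.14-fold (limma adjusted p 0.0293). HMOX1, with no test, was higher labelled serum-free by 1.90-fold in induced and 12.9-fold in silenced cells. Its mean over both states, 4.95-fold, rests largely on 1 low array, that of silenced cells labelled serum (182).

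Of NRF2 and its regulators, 0 of 11 rose and 3 fell. MAFF, a small MAF gene, read 350 and 305 labelled serum-free (induced, silenced) and 2246 and 2749 labelled serum (induced, silenced), and fell 7.60-fold (limma adjusted p 0.0167). BACH1, the repressor named above, read 147 in induced and 152 in silenced cells labelled serum-free, and 278 in induced and 421 in silenced cells labelled serum. It fell 2.29-fold (log2 -1.19, SE 0.23, limma adjusted p 0.0343), and it was lowest in the arrays where HMOX1 was highest and highest where HMOX1 was lowest. Its part in the HMOX1 signals was not tested.

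SQSTM1, whose product p62 binds KEAP1, fell 1.76-fold (limma adjusted p 0.0473), although its probe sets that read 60 to 76.2 and 12.2 to 26.1 were higher labelled serum-free. NFE2L2 itself read 1718 in induced and 1764 in silenced cells labelled serum-free, and 1898 in induced and 2442 in silenced cells labelled serum. It did not pass for medium, nor did KEAP1 (257 and 266 labelled serum-free, 216 and 203 labelled serum, induced before silenced), which is named outside the rule for named genes. NRF2 activity is set by protein level, which these arrays do not measure.

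**Figure D4:**
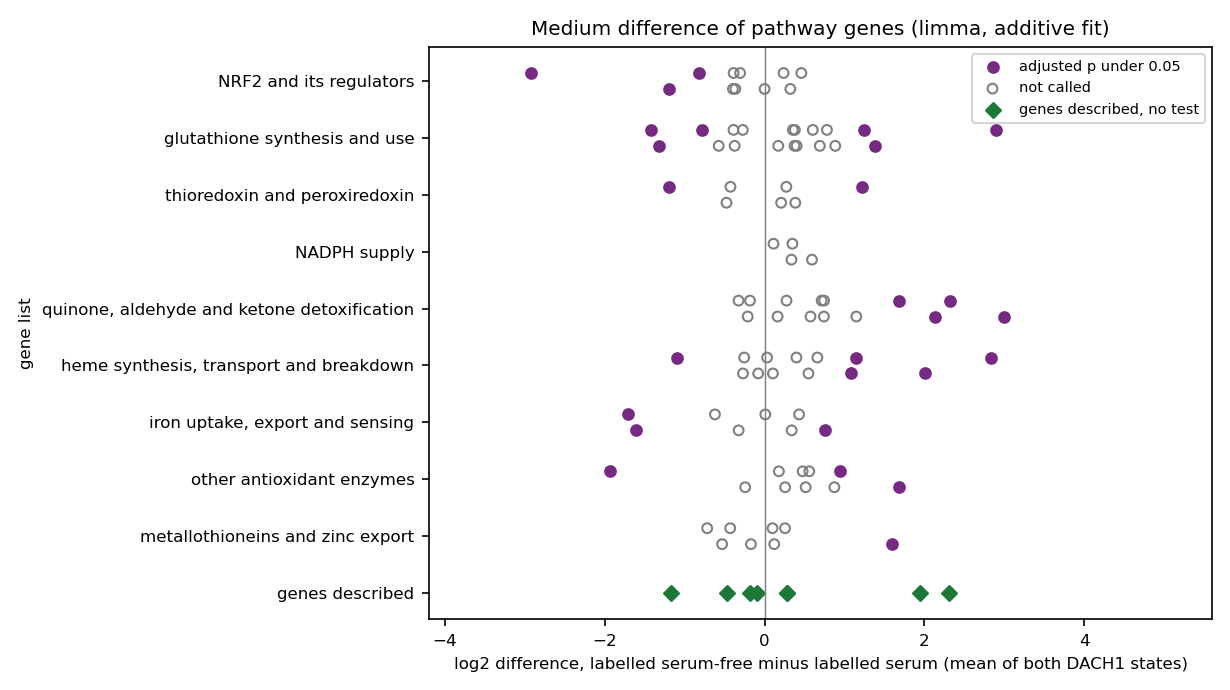
Medium difference (log2, labelled serum-free minus labelled serum, mean of both DACH1 states) of 94 other pathway genes in 9 lists, from the limma fit, and of the 8 genes described in the bottom row, which carry no test. Filled purple circles passed an adjusted p of 0.05 in limma, grey circles did not. Detoxification genes have 4 called points to the right and 0 to the left, while NRF2 and its regulators have 3 to the left and 0 to the right. Of all genes fitted, 15.4% were called higher and 12.7% lower, and no list was tested as a set.

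Glutathione genes split, with 3 of 19 up and 3 down. SLC7A11 rose 7.45-fold (log2 2.90, SE 0.30, limma adjusted p 0.0188), at 242 and 377 labelled serum-free (induced, silenced) against 23.3 and 70.4 labelled serum (induced, silenced). ABCC2, a transporter of glutathione conjugates, rose 2.61-fold and the glutaredoxin gene GLRX 2.36-fold. SLC3A2, the heavy chain that partners SLC7A11, fell 2.5-fold, GSTO1 2.69-fold and the glutathione synthetase gene GSS 1.72-fold. GLRX and GSS complete the count and lie outside the rule for named genes.

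GCLC, at 2.25-fold lower over both states with no test, lay on the side of GSS, the gene of the next step of the pathway. That GCLC mean rests largely on 1 high array, that of silenced cells labelled serum (1412). Its other probe sets gave means of 1.995-fold and 1.44-fold lower. GSS was lower by similar amounts in both states, at -0.86 in induced and -0.70 in silenced cells. The thioredoxin list had TXNRD2, the mitochondrial thioredoxin reductase gene, up 2.32-fold and SESN2 down 2.29-fold among 7 genes.

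Of 10 other antioxidant enzymes, 2 rose and 1 fell. CAT, the catalase gene, read 1273 and 1256 labelled serum-free (induced, silenced) and 421 and 367 labelled serum (induced, silenced), a rise of 3.21-fold (limma adjusted p 0.0193). PRDX4, a peroxiredoxin gene of the endoplasmic reticulum, rose 1.93-fold. SOD2, the mitochondrial superoxide dismutase gene and a known NF-kB target, fell 3.81-fold (limma adjusted p 0.0239).

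Iron genes had 1 of 8 up and 2 down: STEAP3, a ferrireductase gene, rose 1.69-fold, and the iron importer genes SLC11A2 and SLC25A37 fell 3.28-fold and 3.06-fold. Among 8 genes of metallothioneins and zinc export only MT1M passed, up 3.02-fold, and 0 of 4 NADPH genes did. Heat shock genes, which can accompany HMOX1 under stress, had 1 of 6 up and 0 down, HSPB1 at 1.77-fold, and 1 of 9 housekeeping genes rose, ACTB at 1.84-fold.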

How the data were processed

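The deposited values are 1 signal intensity per probe set and array on a linear scale, made by the authors with MAS5 per the submitters' processing notes. Per the labels' protocols, 6 µg of RNA went into each labelling. The MAS5 version is not given in the sources used here. Means after trimming 2% at each end were 99.63 to 99.65, so the arrays were scaled alike. No 2 arrays shared more than 569 of 54613 signals, and 0 columns were left unused. Names of probe sets came from GEO's annotation of the platform, and older symbols were replaced through Entrez identifiers (99.9% of those with 1 gene): 41091 had 1 gene, 1801 several, and 11721 were not listed.

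Of several probe sets of a gene, the one brightest on average in log2 was used (19775 genes), and signals under the 40th percentile (10.9) were raised to it before taking log2. Genes were compared if 1 of the 2 arrays, or 2 of 4 in the fit, reached the median signal of 17.2. Single arrays were compared by fold, with 2-fold as the count. The additive limma fit (lmFit, eBayes, Benjamini-Hochberg over all genes) was run on simulated data, where it recovered 65 of 68 medium changes of 2-fold. Those data had the same spread for every gene (SD 0.2 on the log2 scale) and no DACH1-by-medium difference. These arrays do have such differences, so the simulation does not vouch for the p-values given here. Members, lists, alternatives and the naming rule were chosen with earlier results of these data known. The naming rule took all members, up to 4 genes per list and comparison by size of difference, the 5 genes most like HMOX1, and DACH1. Alternatives were quantile normalization, other floors and filters, other choices of probe set and a trend in the variance prior. Fits used limma 3.58.1 in R 4.3.3, and tables and plots used matplotlib 3.10.9, numpy 2.4.6 and pandas 2.3.3 in Python 3.11.15.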

Additional observations from a re-analysis of the deposited data

Results flagged for a closer look

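With 1 array per condition, directions that were opposite in 2 groups are given as values, and none of these differences was tested. GCLC differed by 0.05 with DACH1 induced labelled serum-free and by -1.44 labelled serum, a difference of 1.48 on the log2 scale. NQO1 (-0.01 and 0.20, difference -0.21) and FTL (-0.15 and 0.12, difference -0.27) also had opposite signs in these media, with small values on both sides. For the medium difference, OSGIN1 was at -0.83 in induced and 0.46 in silenced cells (difference -1.29), and SRXN1 at -0.40 in induced and 0.22 in silenced cells (difference -0.62).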

How the results depend on the processing

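Across 7 alternatives the members' differences between single arrays were recomputed 210 times. Of these, 205 kept their direction and their side of 2-fold, and 5, all of the DACH1 comparison labelled serum-free and with recomputed values between -0.20 and 0.12, changed sign (NQO1 and FTL with quantile normalization, GCLM and GCLC with the mean of all probe sets, GCLC without _x_at and _s_at probe sets). A difference that kept direction and side could still change in size. With quantile normalization, the medium difference of FTL fell from 0.41 to 0.05 in silenced and from 0.14 to 0.02 in induced cells. Without _x_at and _s_at probe sets, 0 members were 2-fold different between media in induced cells, since NQO1 and FTL then have no probe set. OSGIN1 drops out with a floor of 50 and an array at 100 or more, and where every array must reach the median, which leaves HMOX1 and GCLC as the 2 past 2-fold with DACH1 labelled serum. Of the other pathway genes, limma called 20 to 38 for medium, except with no filter on low signals, where it called 0 of 98 although 36 had an unadjusted p under 0.05. For DACH1 state it called 0 in every alternative. No paired analysis was possible because each condition has 1 array and the labels carry no replicate numbers, and no array could be left out without losing a condition. OSGIN1 read under the median of all signals on 1 array, and PIR on 1 array.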
